A study of Homo sapiens with 4 samples.

Results

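The genes of the proteasome were described across 4 RNA libraries of A375, a human melanoma cell line. Members were all symbols made of PSMA, PSMB, PSMC, PSMD, PSME or PSMF and a number and present in all 4 deposited tables, which gave 44 of 23284 symbols. Antisense and pseudogene rows were left out, as was PSMC3IP, whose symbol goes on after the number. The series asked how RNA differs when MAGE-A1, a cancer-testis antigen made in testis and in many tumours, is added or knocked down. The vector library came from A375 cells stably transfected with the empty pcDNA3 plasmid, and the overexpression library from cells stably carrying pcDNA3-MAGE-A1. The scramble library came from cells stably carrying pRNAT-scramble, and the knockdown library from cells with pRNAT-shMAGE-A1, a hairpin against MAGE-A1. All 4 groups thus carried a plasmid, and the labels do not say whether each line was 1 clone or a pool.

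The proteasome is the protease that degrades ubiquitin-tagged proteins in the cytosol and nucleus. Its barrel-shaped 20S core is built of alpha and beta subunits, of which PSMB5, PSMB6 and PSMB7 carry the catalytic sites, and the 19S cap binds ubiquitin, unfolds the substrate with its ring of ATPases and feeds it into the core. Interferon-gamma induces PSMB8, PSMB9 and PSMB10, which take the places of PSMB5, PSMB6 and PSMB7 in the immunoproteasome, together with the activator subunits PSME1 and PSME2; this form favours the cutting of peptides for presentation on MHC class I.

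By role, the 44 members comprised 14 genes of the 20S core (7 alpha, PSMA1 to PSMA7, and 7 beta, PSMB1 to PSMB7) and 17 of the 19S cap (6 ATPases, PSMC1 to PSMC6, and 11 non-ATPase PSMD genes). A further 3 PSMD genes (PSMD5, PSMD9 and PSMD10) encode chaperones that help build the cap and are not part of the finished particle. The inducible set held 5 genes, and the rest were the activators PSME3 and PSME4, the inhibitor PSMF1 and the tissue-restricted PSMA8 and PSMB11. PSMA8, the alpha subunit of the testis proteasome, was listed at 0 in all 4 libraries. At the estimated depths, 3 reads of it would have given from 0.0846 RPKM in the vector library to 0.164 RPKM in the overexpression library. PSMB11, the catalytic subunit of the thymus, was listed at 0.072 RPKM in the vector library and 0.036 RPKM in the scramble library, about 3 reads and 1 read, and at 0 in the other two. These 2 genes were not counted further, so 42 members entered each comparison.

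Values were RPKM, reads scaled to transcript length and to library size, so that levels can be set side by side across genes. A log2 ratio below is log2 of the quotient of RPKM + 1 between a library and its control, which understates the change of low genes, and it was taken for genes that reached 1 RPKM in one or both of the libraries compared. Each group had 1 library, so differences have no check by replicates, nothing was tested, and every ratio compares libraries rather than conditions. Intervals are exact conditional 95% intervals of the RPKM ratio from estimated reads and cover counting error only. In RNA of a whole culture, fewer cells expressing a gene and less RNA per cell cannot be told apart.

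Depth, estimated from the steps in low values, ran from 12620000 reads in the overexpression library to 24510000 in the vector library, and the least covered member counted had about 21 reads. MAGEA1 was at 1.80 RPKM with the empty vector, 126 with added MAGE-A1, 0.767 with the scrambled hairpin and 0.473 with the knockdown hairpin, so the added gene was visible while the knockdown started from a control already below 1 RPKM. The melanocyte lineage factor SOX10 was at 281 to 336 RPKM, whereas the pigment genes PMEL, MLANA and TYR were under 1 RPKM in every library. Other markers of that list differed between libraries: S100B was at 88.8, 17.4, 49.5 and 67.5 RPKM in the order vector, overexpression, scramble and knockdown, S100A1 at 66.3, 26.4, 63.1 and 114, and the pigment gene DCT at 3.61, 2.15, 8.16 and 1.14. Among 8 leukocyte markers, listed because resting leukocytes make inducible subunits, PTPRC and CD3E were at 0.06 RPKM or less, while CD74 (529 to 962 RPKM) and HLA-DRA (204 to 382 RPKM) were high in all 4 libraries. That list summed to 1337 RPKM with the empty vector, 829.9 with added MAGE-A1, 1039 with the scrambled hairpin and 1208 with the knockdown hairpin. Summed fibroblast markers were at 5.39 to 12.1 RPKM, keratinocyte markers at 0.385 to 6.41 and endothelial markers at 0.245 to 0.687. The part of these markers in the results was not tested.

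Proteasome genes were among the abundant transcripts of A375. The median level of the 20S core genes was 132 RPKM with the empty vector, 123 with added MAGE-A1, 139 with the scrambled hairpin and 272 with the knockdown hairpin. The 19S cap genes had medians of 77.0, 95.9, 81.2 and 137 RPKM in the same order, and the inducible set 27.9, 25.1, 29.6 and 53.5 RPKM. In the vector library these medians lay at percentiles 96.7, 93.0 and 76.0 of the genes at 1 RPKM or more. All members together made up 1.01%, 0.953%, 0.996% and 1.32% of the RPKM of genes other than small RNA genes. The summed share was thus nearest between the controls and highest in the knockdown library.

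Levels spread widely within the core and the cap, although each subunit is present in a fixed number of copies in the finished particle. In the vector library the core ran from 18.7 RPKM for PSMA5, an alpha subunit, to 500.4 RPKM for PSMB4, a beta subunit without a catalytic site, a ratio of 26.7. The cap ran from 8.70 RPKM for the ATPase PSMC1 to 204 RPKM for the ATPase PSMC4, a ratio of 23.4. The 7 beta genes had a vector median of 160.1 RPKM against 53.2 RPKM for the 7 alpha genes. PSMC1 has 13 named pseudogenes in GENCODE, more than any other member, and reads shared with such copies could be split by the authors' counting. Of the 44 members, 12 have named pseudogenes and 20 overlap an exon of another gene, PSMB8 and PSMB9 among them, which overlap each other on opposite strands. No source used here states whether strand was used in the counting, so values of such genes may hold reads of the neighbour.

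**Figure D1:**
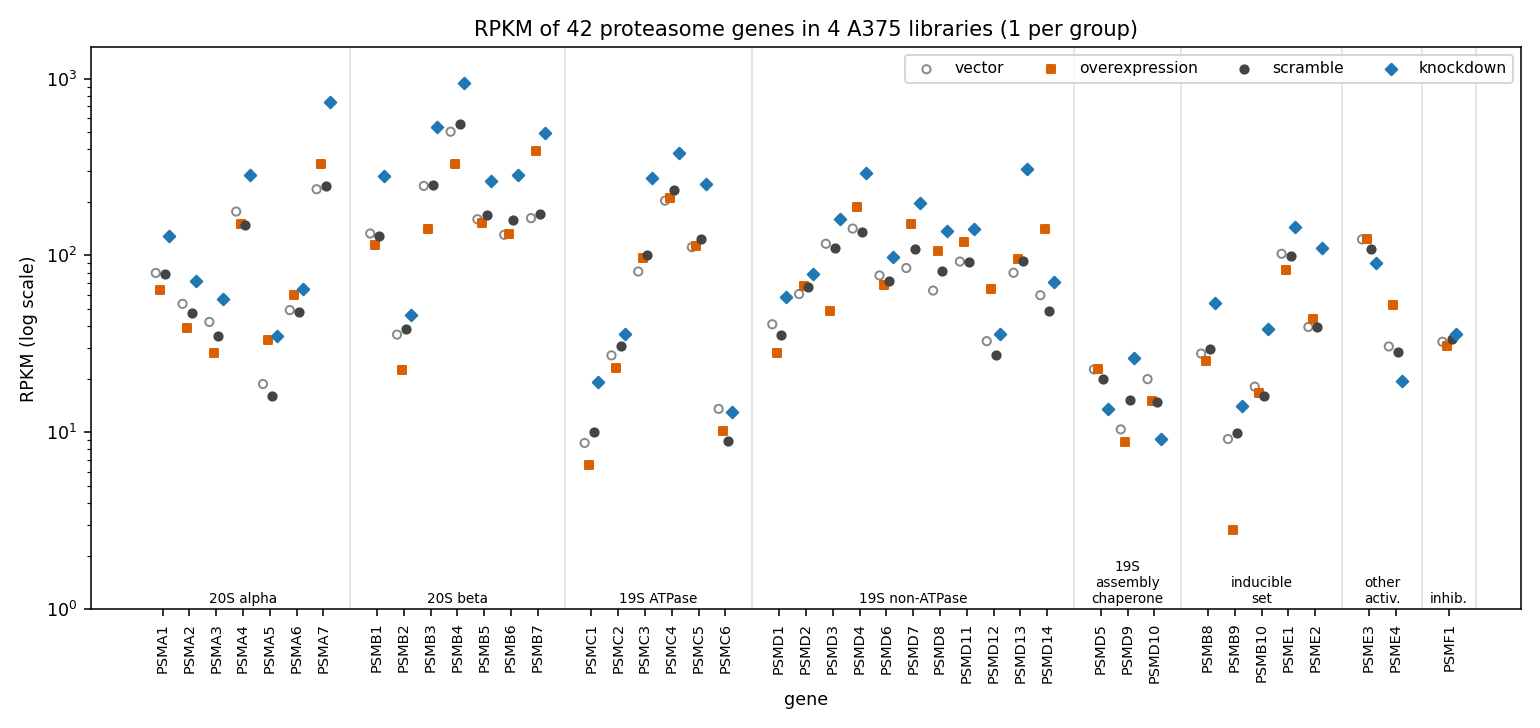
RPKM (log axis) of 42 proteasome genes, grouped by role along the x axis, with 1 point for each of the 4 libraries. The vector and scramble points lie close together, the knockdown points lie above the scramble points in all 31 core and cap genes, and the overexpression point of PSMB9 (2.80 RPKM) stands below its other points.

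The 2 control libraries were close for proteasome genes. On the scale of RPKM + 1, none of 42 members differed by 1.5-fold between scramble and vector, where 3.71% of all 13326 genes counted were higher and 4.22% lower by that size (0.893% and 1.79% at 2-fold). The largest control differences among members were a log2 ratio of -0.56 for the ATPase PSMC6, at 13.6 RPKM with the empty vector and 8.88 RPKM with the scrambled hairpin, and 0.51 for PSMD9. In plain RPKM the PSMC6 values differed by 1.53-fold. The median control difference was 0.00 in the core, 0.14 in the cap and 0.00 in the inducible set.

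In the overexpression library, proteasome genes went in both directions and the core and cap had no common shift. Of 42 members, 7 were at least 1.5-fold higher than in the vector library and 5 at least 1.5-fold lower, where 21.3% and 18.8% of all 13577 genes counted were. At 2-fold, 2 members were higher and 2 lower, beside 10.6% and 7.28% of all genes. A log2 ratio above 0 was seen in 20 of 42 members and in 51.6% of all genes, and the median was -0.07 for members and 0.02 for all genes. These shares lay near or below those of all genes, so the counts show nothing particular to the proteasome. The 20S core had a median of -0.23 with 5 of 14 genes above 0, and the 19S cap 0.15 with 11 of 17 above 0. The cap's non-ATPase genes had a median of 0.36, while none of its 6 ATPases reached 1.5-fold either way.

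Of the catalytic subunits of the core, only PSMB7, the trypsin-like site, stood out in the overexpression library. PSMB7 was at 162 RPKM with the empty vector, 391 with added MAGE-A1, 171 with the scrambled hairpin and 490.4 with the knockdown hairpin. Its RPKM was 2.41-fold (95% interval 2.30 to 2.52) that of the vector library, the highest log2 ratio of any member in this pair (1.26). PSMB5, the chymotrypsin-like site, was at 160.1, 153, 169 and 262 RPKM in the same order, and PSMB6, the caspase-like site, at 131, 132, 158 and 284 RPKM. Both lay close to their vector value in the overexpression library (log2 ratios of -0.06 and 0.01), and all 3 were above the scramble library in the knockdown library.

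Other beta subunits were lower in the overexpression library. PSMB3, a structural beta subunit, was at 247 RPKM with the empty vector, 141 with added MAGE-A1, 249 with the scrambled hairpin and 535 with the knockdown hairpin (log2 ratio -0.81 in the overexpression pair). PSMB2, also structural, was at 35.7, 22.4, 38.2 and 45.8 RPKM (-0.64). PSMB4 was at 500.4, 328, 553 and 944 RPKM (-0.61). For each of the 3, the overexpression library was the lowest and the knockdown library the highest of the 4, with the controls between them. Among the alpha subunits, which form the gate of the barrel, PSMA5 was at 18.7 RPKM with the empty vector, 33.4 with added MAGE-A1, 16.1 with the scrambled hairpin and 35.2 with the knockdown hairpin. Its log2 ratio was 0.80 in the overexpression pair, so both altered lines lay above both controls. PSMA3, the alpha gene of the lowest ratio in that pair (-0.57), was at 42.05, 28.1, 35.1 and 56.4 RPKM. The remaining alpha genes lay between -0.45 (PSMA2) and 0.46 (PSMA7).

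In the 19S cap the widest gaps of the overexpression pair were in the lid, the part that removes ubiquitin. PSMD14, the deubiquitinase of the lid, was at 59.5 RPKM with the empty vector, 140.3 with added MAGE-A1, 48.8 with the scrambled hairpin and 70.9 with the knockdown hairpin, a 2.36-fold difference (2.24 to 2.48) in the overexpression pair. PSMD3, a scaffold subunit of the lid, was at 116, 48.7, 111 and 161 RPKM, and its overexpression value was 0.418 of the vector value (0.393 to 0.446). PSMD12, also of the lid, was at 32.7, 64.9, 27.5 and 35.7 RPKM (log2 ratio 0.96). PSMD14 and PSMD12 were thus highest and PSMD3 lowest in the overexpression library. PSMD7, which pairs with PSMD14 in the enzyme, was at 84.8, 150.2, 108 and 198 RPKM (0.82). PSMD8, another lid subunit, was at 63.3, 106, 81.2 and 137 RPKM (0.74). For these 2 genes both altered lines were above their controls, although both overexpression values were less than 1.5-fold above the scramble value. PSMD1, the large scaffold of the base, had a log2 ratio of -0.52, next to PSMD3 at the low end. PSMC6, an ATPase, was at 13.6, 10.2, 8.88 and 13.1 RPKM, with a log2 ratio of -0.38 to the vector library. PSMD6, a lid subunit with no call in either pair, was at 77.0, 68.3, 71.9 and 98.5 RPKM.

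The activator PSME4, also called PA200, was at 30.6 RPKM with the empty vector, 52.7 with added MAGE-A1, 28.3 with the scrambled hairpin and 19.6 with the knockdown hairpin. It was 1.72-fold (1.66 to 1.79) higher with added MAGE-A1 and 0.691 of the scramble value (0.656 to 0.728) with the hairpin, so its 2 ratios had opposite signs. With the trend on transcript length and GC content removed (described below), the knockdown log2 ratio of this long transcript went from -0.51 to 0.14, so its direction in that pair depends on that step. PSME3, the nuclear activator, was at 123, 124, 109 and 91.1 RPKM, and PSMF1, the inhibitor known as PI31, at 32.5, 30.6, 33.7 and 36.0 RPKM. Neither reached 1.5-fold in either pair.

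**Figure D2:**
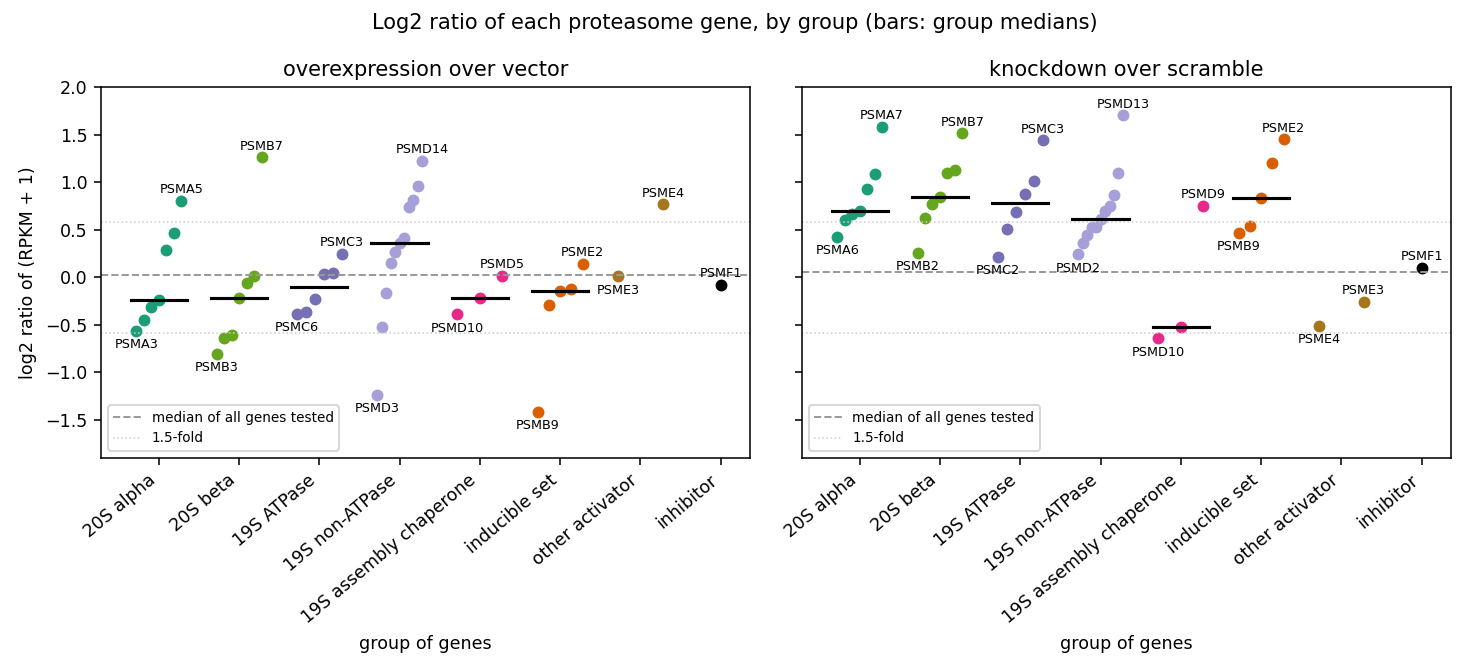
Log2 ratios of (RPKM + 1) of the 42 members, 1 point per gene and 1 column per role, in the overexpression pair (left) and the knockdown pair (right), with black bars for group medians. On the left the points scatter around the median of all genes (0.02), and on the right all 31 core and cap genes and all 5 inducible genes lie above 0, before any trend on transcript length is removed.

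In the knockdown library nearly the whole proteasome was higher than in the scramble library. Of 42 members, 38 had a log2 ratio above 0, beside 52.5% of all 13569 genes counted, and the median was 0.70 for members and 0.06 for all genes. At least 1.5-fold, 26 members were higher and 1 was lower (PSMD10), beside 25.7% and 21% of all genes. At 2-fold, 11 members were higher and 0 lower, beside 12.4% and 8.52%. All 14 core genes (median 0.81) and all 17 cap genes (median 0.69) were above 0, of which 12 and 10 passed 1.5-fold.

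The 3 core genes of highest ratio came from both rings. PSMA7, an alpha subunit, was at 237 RPKM with the empty vector, 327 with added MAGE-A1, 246 with the scrambled hairpin and 738 with the knockdown hairpin, 3.00-fold (2.88 to 3.12) the scramble value. PSMB7, whose levels are given above, was 2.87-fold higher (2.73 to 3.01). PSMB1, a structural beta subunit, was at 133, 114, 129 and 282 RPKM (log2 ratio 1.13). In each of these 3 genes the knockdown library was the highest of the 4. PSMB3 (2.15-fold) and PSMA5 (2.19-fold) also passed 2-fold, and PSMB2 (log2 ratio 0.25) and PSMA6 (0.42) were the lowest of the core. PSMA6, an alpha subunit, was at 49.0, 59.9, 47.9 and 64.6 RPKM. Of the other alpha genes, PSMA4 was at 177, 150.1, 149 and 284 RPKM (0.92). PSMA1 was at 79.6, 64.0, 78.6 and 128 RPKM (0.70). PSMA2 was at 53.2, 38.7, 47.0 and 71.9 RPKM (0.60). In these 4 genes, as in PSMA3, the knockdown library was again the highest of the 4.

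In the cap, PSMD13, a lid subunit, had the highest log2 ratio of all members in the knockdown pair (1.70). It was at 79.7 RPKM with the empty vector, 95.9 with added MAGE-A1, 93.5 with the scrambled hairpin and 307 with the knockdown hairpin, 3.28-fold (3.14 to 3.43) the scramble value. PSMD13 shares exon sequence with SIRT3 on the opposite strand. PSMC3, an ATPase, was at 81.0, 96.2, 100.5 and 274 RPKM (log2 ratio 1.44). PSMD4, a ubiquitin receptor of the cap, was at 142, 189, 136 and 292 RPKM (2.15-fold). PSMC5, another ATPase, was at 111, 113, 124 and 253 RPKM (1.02). In these 4 genes the other 3 libraries lay close to one another and the knockdown library apart above them. Smaller differences of at least 1.5-fold were seen in PSMC1, PSMC4, PSMD1, PSMD7, PSMD8 and PSMD11. PSMC1 was at 8.70, 6.5, 9.98 and 19.2 RPKM and PSMC4 at 204, 211, 235 and 379 RPKM. PSMD1 was at 40.8, 28.1, 35.3 and 58.0 RPKM and PSMD11, a lid subunit, at 92.3, 119, 92.1 and 141 RPKM. The 3 lowest ratios were those of the ATPase PSMC2 (0.21), of PSMD2 (0.24), the other large scaffold of the base, and of PSMD12 (0.37). PSMC2 was at 27.2, 23.1, 30.8 and 35.9 RPKM and PSMD2 at 60.5, 67.0, 66.5 and 78.8 RPKM.

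The chaperones among the members that help build the base of the cap went in both directions in the knockdown pair, with PSMD10 and PSMD5 lower and PSMD9 higher. PSMD10, known as gankyrin, was at 19.97 RPKM with the empty vector, 15.0 with added MAGE-A1, 14.9 with the scrambled hairpin and 9.20 with the knockdown hairpin, 0.617 (0.504 to 0.754) of the scramble value. PSMD5 was at 22.7, 22.9, 19.98 and 13.5 RPKM (log2 ratio -0.53). PSMD9 was at 10.4, 8.77, 15.2 and 26.2 RPKM (0.75). For PSMD10 and PSMD5 the knockdown library was the lowest of the 4, and for PSMD9 the highest, above a scramble value that was itself 0.51 above the vector on the log2 scale.

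The inducible set was expressed in all 4 libraries. PSMB8, the inducible counterpart of PSMB5, was at 27.9 RPKM with the empty vector, 25.1 with added MAGE-A1, 29.6 with the scrambled hairpin and 53.5 with the knockdown hairpin. PSMB10, the counterpart of PSMB7, was at 18.1, 16.6, 16.1 and 38.4 RPKM. PSMB9, the counterpart of PSMB6, was at 9.16, 2.80, 9.86 and 14.01 RPKM. For PSMB8 and PSMB10 the overexpression library lay near the controls, and for PSMB9 it lay below them. PSME1, the alpha subunit of the interferon-induced activator, was at 102, 83.0, 99.5 and 145 RPKM, and its partner PSME2, the beta subunit, at 39.4, 43.5, 39.5 and 109.7 RPKM. Both were highest in the knockdown library.

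In the overexpression pair PSMB9 alone of the inducible set passed 1.5-fold, with a log2 ratio of -1.42. Its overexpression value was 0.306 of the vector value (0.186 to 0.496), from about 21 reads, the fewest of any member counted. The other 4 genes lay between -0.30 (PSME1) and 0.14 (PSME2). In the knockdown pair all 5 had a log2 ratio above 0 with a median of 0.83, and PSME2 (1.45), PSMB10 (1.20) and PSMB8 (0.83) passed 1.5-fold. PSME1 (0.54) and PSMB9 (0.47) did not. The inducible median lay beside 0.81 for the core and 0.69 for the cap. With the trend on transcript length and GC content removed, it was 0.24 beside 0.49 and 0.62, so its place relative to the constitutive genes depends on that step.

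Set against the constitutive subunit whose place it takes, each inducible catalytic gene was the scarcer. PSMB8 was at 17.4% of PSMB5 with the empty vector, 16.4% with added MAGE-A1, 17.5% with the scrambled hairpin and 20.4% with the knockdown hairpin. PSMB10 was at 11.1%, 4.24%, 9.42% and 7.83% of PSMB7, and PSMB9 at 7.0%, 2.12%, 6.23% and 4.93% of PSMB6. The share of PSMB8 was nearly level over the libraries, while those of PSMB10 and PSMB9 were lowest in the overexpression library. For PSMB10 the low share came with the high PSMB7 of that library, and for PSMB9 with its own low value. The ratio of PSME1 to PSME2, whose proteins assemble into one ring, was 2.59, 1.91, 2.52 and 1.32 in the same order of libraries.

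**Figure D3:**
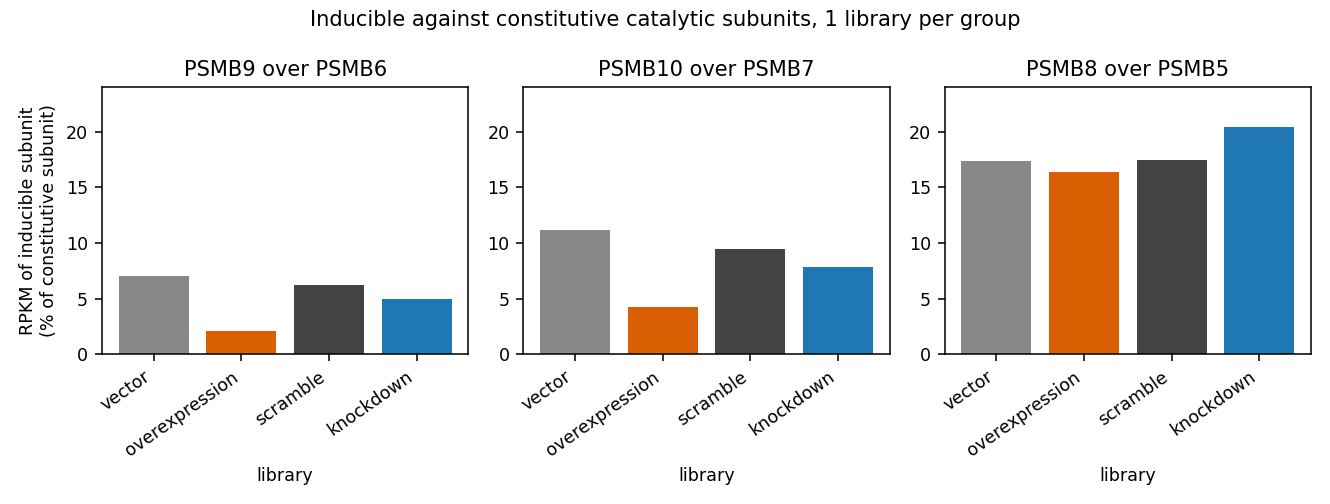
RPKM of each inducible catalytic subunit as a percent of its constitutive counterpart (y axis, from 0), with 1 bar per library and no error bars because each group has 1 library. PSMB9 over PSMB6 and PSMB10 over PSMB7 are lowest in the overexpression library (2.12% and 4.24%), and PSMB8 over PSMB5 stays between 16.4% and 20.4%.

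Transcript length and GC content moved with the ratios of the knockdown pair over all genes. Across 11668 genes with a length, Spearman's rho of the log2 ratio with transcript length was -0.51 in the knockdown pair and 0.04 in the overexpression pair (11654 genes), as a description across genes that share the same libraries. Across the 42 members it was -0.40 and 0.23. With GC content, rho in the knockdown pair was 0.42 across all genes and 0.49 across members. Proteasome transcripts were short, with a median of 993 nt in the core, 1791 nt in the cap and 1218 nt in the inducible set. Up to 1000 nt, the 9 members had a knockdown median of 0.84, the same as the 832 genes of that length (0.84), and 4 of the 9 lay above it. From 1000 to 2000 nt, 18 of 20 members lay above the median of all genes of that length, with medians of 0.75 and 0.45. From 2000 to 4000 nt, 9 of 11 members did (0.25 and 0.00), and above 4000 nt 1 of 2.

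**Figure D4:**
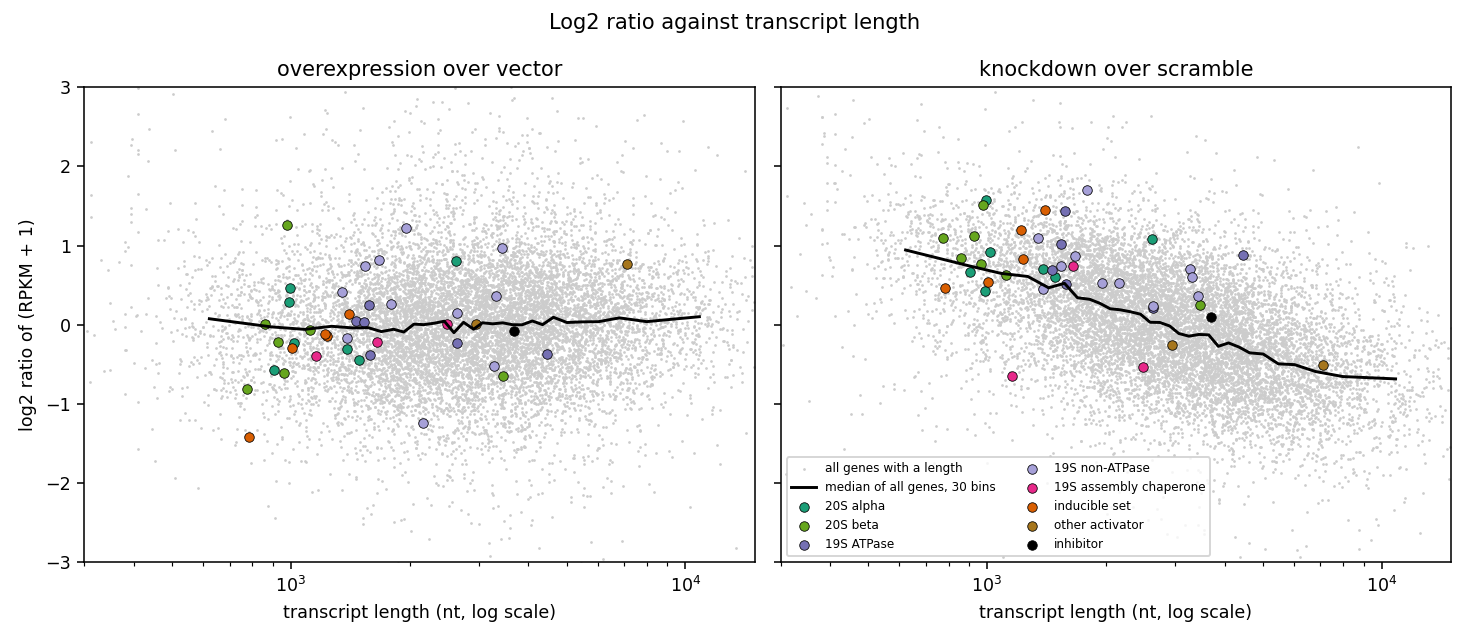
Log2 ratio of (RPKM + 1) against transcript length in nt (log axis), with 1 grey point for each gene, coloured points for the members and a black line for the median of all genes in 30 bins. The line is nearly flat in the overexpression pair and falls with length in the knockdown pair, where most members longer than 1000 nt lie above it.

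With the trend of the ratio on length and GC content removed, all 31 core and cap genes were still above 0 in the knockdown pair, beside 50.6% of all genes. Their median was 0.54 in place of 0.70, and 13 in place of 22 passed 1.5-fold, as did 15.2% of all genes upward and 15% downward. Most of the loss was in the core, where 4 of 14 genes kept 1.5-fold (PSMA4, PSMA5, PSMA7 and PSMB7) and the median was 0.49. The core genes PSMA6 (0.04), PSMB6 (0.07) and PSMB5 (0.07) were left close to 0. The cap had a median of 0.62, with 9 of 17 genes past 1.5-fold, PSMD13 (1.42) and PSMC1 (1.22) highest. In the inducible set 3 of 5 genes stayed above 0, with a median of 0.24. PSME2 (0.86) alone stayed past 1.5-fold, and PSMB9 was at -0.39. PSMD10 was at -0.94 and remained the only member at least 1.5-fold lower. In the overexpression pair the same step gave 6 members higher and 9 lower, beside 16.9% and 19% of all genes, and PSMB7 (1.19), PSMD14 (1.11), PSMD3 (-1.08) and PSMB9 (-1.50) kept their direction and moved by less than 0.2.

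**Figure D5:**
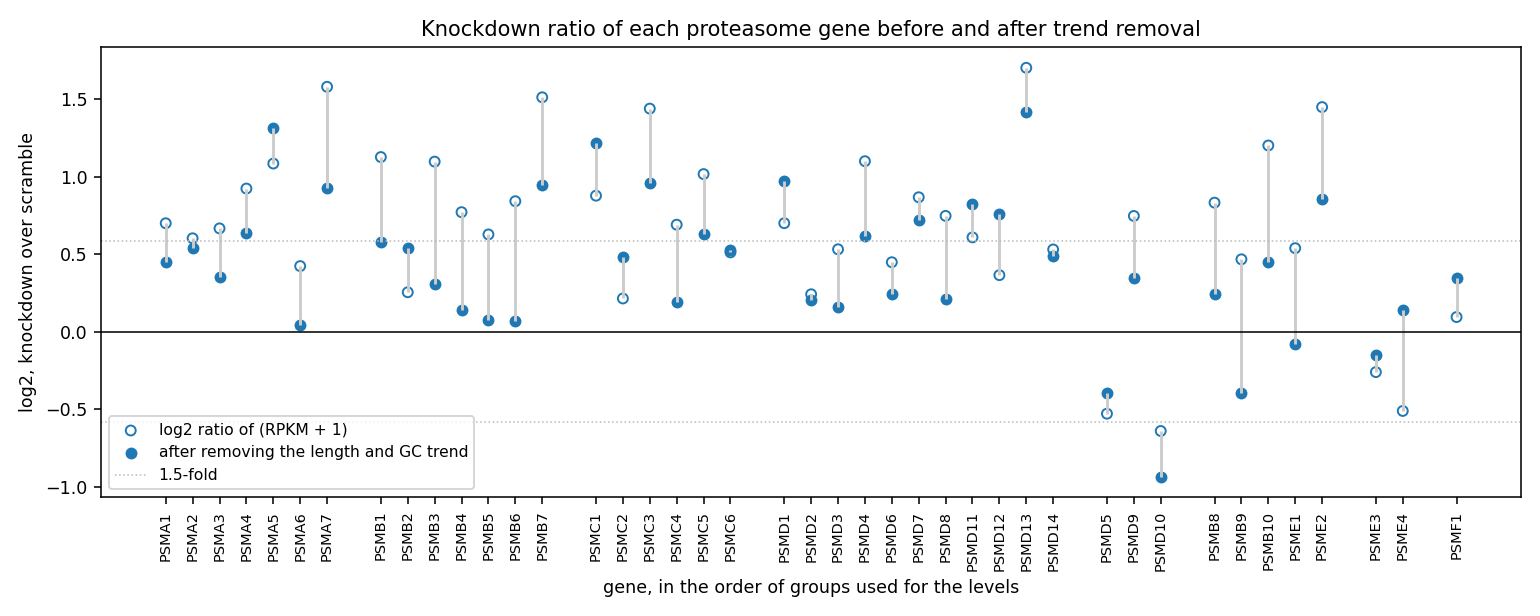
Log2 ratio of knockdown over scramble for the 42 members, with open points before and filled points after removal of the trend on transcript length and GC content, joined by a line for each gene. All 31 core and cap genes stay above 0 (PSMA6 lowest at 0.04), PSMB9 and PSME1 move below 0, and PSMD10 moves to -0.94.

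Scaling the libraries to the same upper quartile shifted the all-gene median by -0.15 in the knockdown pair and by -0.10 in the overexpression pair. The share of calls that were upward among all genes in the knockdown pair went from 55.0% to 43.1% (2743 genes higher and 3614 lower, 20.2% and 26.6% of all genes), and members went from 26 higher and 1 lower to 17 higher and 3 lower. All 31 core and cap genes remained above 0, with a median of 0.53, beside 45.5% of all genes. PSMD5 (-0.69) and PSME4 (-0.68) joined PSMD10 among those at least 1.5-fold lower.

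Of all members, 4 were at least 1.5-fold higher than their control in both pairs, namely PSMA5, PSMB7, PSMD7 and PSMD8, which is 4 of the 7 higher in the overexpression pair and 4 of the 26 higher in the knockdown pair. Of all 13106 genes counted in both pairs, 7.06% were higher in both, so 4 of 42 members lay near that share. Of these, PSMB7 and PSMD7 held that place in both pairs after rescaling and after trend removal. PSMB3 and PSMB4 were lower in the overexpression and higher in the knockdown pair (4.04% of all genes), also after rescaling, but with the trend removed their knockdown ratios were 0.31 and 0.14. Across the 31 core and cap genes the 2 ratios had a Spearman's rho of 0.22, again as a description.

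Genes that serve the proteasome were read from lists of the pathway. The 6 assembly chaperones were all at least 1.5-fold higher in the knockdown library, beside 25.7% of all genes, and 3 of the 6 (POMP, PSMG3 and PSMG1) were so with the trend on length and GC content removed. POMP, which matures the core, was at 60.4 RPKM with the empty vector, 90.3 with added MAGE-A1, 51.9 with the scrambled hairpin and 158 with the knockdown hairpin (log2 ratio 1.59). PSMG3, a chaperone of the alpha ring, was at 46.8, 65.99, 56.1 and 182 RPKM (1.68). PSMG4 (1.05), PSMG1 (0.96), PSMG2 (0.83) and the cap chaperone PAAF1 (0.62) followed. Only PSMG1 passed 1.5-fold in the overexpression pair, where it was 1.01 higher on the log2 scale. Core chaperones and core subunits thus lay on the same side in the knockdown library, as did the cap chaperones PAAF1 and PSMD9. The cap chaperones PSMD10 and PSMD5 lay on the other side.

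Of 7 partners of the cap, 3 were higher and 1 lower in the overexpression pair, and 2 were higher and 1 lower in the knockdown pair. The shares over all genes are 21.3% and 18.8% in the first pair and 25.7% and 21% in the second. SHFM1, now SEM1, the smallest lid subunit, was at 156 RPKM with the empty vector, 65.0 with added MAGE-A1, 158 with the scrambled hairpin and 332 with the knockdown hairpin (-1.25 and 1.07). ADRM1, a ubiquitin receptor of the cap, was at 109.7, 189.97, 129 and 258 RPKM (0.79 and 0.99). UCHL5, the deubiquitinase that ADRM1 binds, was at 31.3, 65.2, 21.7 and 25.2 RPKM (1.03 and 0.20). ADRM1 and UCHL5 were thus both higher with added MAGE-A1, as PSMD14 was, and SHFM1 lower, as PSMD3 was. KIAA0368, now ECPAS, had log2 ratios of 0.77 and -0.32, and the ubiquitin ligase UBE3C -0.44 and -0.96. With the trend removed, the knockdown ratios of ADRM1 and UBE3C were 0.18 and -0.51, both short of 1.5-fold, and TXNL1, at 0.39 before, passed 1.5-fold upward. SHFM1 and KIAA0368 had no length in the reference under these symbols.

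Of the ubiquitin genes, UBB and RPS27A were at least 1.5-fold higher in the knockdown library, with log2 ratios of 0.76 and 1.25 (0.16 and 0.73 with the trend removed). In the overexpression library UBB (-0.71) was lower and RPS27A was at 0.34. Of 9 shuttles and segregase genes counted, 1 was higher and 3 lower in the knockdown pair, and 2 were higher and 3 lower in the overexpression pair, beside the same shares over all genes. DDI2, the protease that activates NFE2L1, was at 12, 22.1, 11.5 and 3.90 RPKM (0.83 and -1.35). VCP, the segregase that pulls ubiquitin-tagged proteins out of complexes, was at 139, 69.6, 174 and 175 RPKM (-0.98 and 0.01), and its cofactor UFD1L at 21.7, 8.48, 21.3 and 26.9 RPKM (-1.26 and 0.32). VCP and UFD1L were thus lowest in the overexpression library. Of the shuttle genes, RAD23B had log2 ratios of 0.63 and -0.36, UBQLN1 of 0.39 and -0.81, and UBQLN2 of -0.60 and -1.0. With the trend removed, the knockdown ratio of RAD23B was 0.06. Those of DDI2 (-0.61), UBQLN1 (-0.59) and UBQLN2 (-0.59) then lay just past 1.5-fold, and 0 genes of this list were higher by that size.

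NFE2L1, the factor that drives proteasome genes when proteasome activity is short, was at 78.7 RPKM with the empty vector, 99.7 with added MAGE-A1, 98.3 with the scrambled hairpin and 75.4 with the knockdown hairpin. Its log2 ratio was 0.34 in the overexpression pair. In the knockdown pair it was -0.38, or -0.17 with the trend removed, from a scramble value 0.32 above the vector on the log2 scale. Whether NFE2L1 had a part in the levels of the subunit genes was not tested. NGLY1, the enzyme that removes sugar chains from NFE2L1, was at 7.94, 17.0, 7.98 and 7.91 RPKM (1.01 and -0.01). Among 12 genes of interferon control and peptide loading, only IRF1 passed 1.5-fold in the overexpression pair, joined by HLA-B (0.61) with the trend removed. Of all genes, 21.3% were higher and 18.8% lower by that size in this pair before trend removal. IRF1, an activator of the inducible subunit genes, was at 6.25, 20.8, 5.99 and 5.48 RPKM (1.58 and -0.11). The library with the highest IRF1 was thus the one with the lowest PSMB9. In the knockdown pair ERAP1, which trims peptides, had a log2 ratio of -1.41 (-0.83 with the trend removed). HLA-B (0.91) and HLA-C (0.82) were higher, but with the trend removed they were at 0.33 and 0.19. The peptide transporter gene TAP1, which lies beside PSMB9, was at 0.40 before that step and at 0.25 after it. IRF1 (-0.11), IRF2 (-0.49) and NLRC5 (-0.18) did not reach 1.5-fold in the knockdown library.

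Promoter letters are shown for members whose ratios stood out, as a description of the DNA before their start sites. RefSeq (GRCh38.p14) gave promoters for 39 of 44 members, and the 250 bases before each start were searched on both strands. The letters GAAA, any 2 bases and GAAA again, as in interferon-stimulated response elements, were found in 4 of 39 members (PSMA4, PSMB4, PSMB10 and PSME2), which is 10.3% beside 3.62% of 13996 genes in the files with a promoter. Of these, PSMB10 and PSME2 are the inducible genes of highest ratio in the knockdown pair, and their windows are printed 5′ to 3′ along the gene, with the searched letters in capitals. They lie at chr16:67936852-67936881 and chr14:24146619-24146648, both on the minus strand.
PSMB10: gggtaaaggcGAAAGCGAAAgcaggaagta
PSME2: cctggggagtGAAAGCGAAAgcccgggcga
The matched letters end 12 and 19 bases before the start of PSMB10 and of PSME2.

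The letters TGACNNNGC, the core of the antioxidant response element to which NFE2L1 and NFE2L2 bind, were found in 11 of 39 members, 28.2% beside 14.8% of genes. They are shown for PSMB9 and PSMD3, the members of lowest ratio in the overexpression pair, and for PSMD12, one of the higher ones, at chr6:32854034-32854063 and chr17:39980760-39980789 on the plus and chr17:67366723-67366752 on the minus strand. In PSMB9 the letters are on the opposite strand, so their reverse complement is in capitals.
PSMB9: gggcggggctGCCTCGTCActtgtctcggg
PSMD3: tcccctttgtTGACTCGGCcatcggcctgc
PSMD12: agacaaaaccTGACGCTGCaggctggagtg
Genes on both sides of 0 in the overexpression pair thus held these letters. CCAAT, bound by NF-Y, was found in 18 members (46.2%, beside 40.5% of genes), PSMD14 among them, with an overlapping second match on the other strand, at chr2:161308365-161308394 on the plus strand. TTCNNNGAA, as in interferon-gamma-activated sites, was found in 7 members (17.9%, beside 8.03%), among them PSMB8. The PSMB8 window lies at chr6:32844093-32844122 on the minus strand. This pattern is its own reverse complement, so each of its matches counts on both strands.
PSMD14: tctccgtcgtctCCAATtggccgtcgggga
PSMB8: aactgtccttTTCTCGGAAaaggcaggggg
A match is a description of the letters and not a binding site.

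In the genome the members were spread over 16 chromosomes, with 8 on chromosome 14 and 7 on chromosome 17 (GRCh38, GENCODE). PSMB8 and PSMB9 lie side by side in the MHC on chromosome 6, yet their RNA differed: the ratio of PSMB8 to PSMB9 was 3.04 with the empty vector, 8.99 with added MAGE-A1, 3.00 with the scrambled hairpin and 3.82 with the knockdown hairpin. PSME1 and PSME2 are close neighbours on chromosome 14. In the knockdown pair PSME2 was 2.78-fold (2.56 to 3.01) and PSME1 1.46-fold (1.36 to 1.56) higher, so these neighbours differed in size but not in direction. PSME2 shares exon sequence with RNF31 and PSME1 with EMC9, each on the opposite strand.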

How the data were processed

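RNA was measured in 4 A375 libraries, 1 per group, with groups taken from the sample titles. Per the labels' protocols, poly(A) RNA was taken on beads from a TRIzol extract and sequenced on Ion Torrent from an Ion total RNA-seq kit. The extraction text speaks of 2 samples. Tools named in the submitters' processing notes, without roles, are Cufflinks 2.2.0, SAMtools 1.1, Bowtie2 2.2.4 and TopHat2 2.0.13, with build hg19. Neither the annotation nor the use of strand is stated in those notes. The deposited values are RPKM per gene symbol, per the file headers.

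The overexpression library was set against the vector library and the knockdown library against the scramble library. For genes at 1 RPKM or more in either library, log2 ratios with a pseudocount of 1 were computed (Python 3.11.15, numpy 2.4.6, pandas 2.3.3, scipy 1.17.1) and counted past 2-fold and 1.5-fold. Nothing was tested, as each group had 1 library. Members and lists were chosen with earlier results of these data known. Named with values were all members past 1.5-fold, the inducible and catalytic genes, the 3 highest and lowest of the core and the cap, and pathway genes past 1.5-fold. Others named were chosen after their values were seen. Some genes of the pathway and marker lists are not reported here.

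Of 23284 symbols, 20058 matched GENCODE 29, with all 44 members. Transcript length and GC content were medians over its RefSeq-linked transcripts. The trend was a polynomial of degree 3 in log length and GC content over genes other than small RNA genes, checked on simulated data. Reads were estimated from low values of 2137 genes (length less 200 nt), of which 64.3% to 70.0% lay within 0.1 of a whole read, so the estimates are rough. They were 24510000 for vector, 12620000 for overexpression, 16310000 for scramble and 19640000 for knockdown. Alternatives were a pseudocount of 0.1, no filter or 5 RPKM, the other control or the mean of both, rescaling, trend removal, and PSMD5, PSMD9 and PSMD10 counted in the cap.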

Additional observations from a re-analysis of the deposited data

How the results depend on the processing

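No paired analysis was possible because each group holds 1 library, and no library could be left out. Of the summary values under alternatives, 114 stayed within 0.2 on the log2 scale or 1.5-fold of a count, 13 moved and 0 reversed. With the trend on length and GC content removed, the knockdown median was 0.49 in the core (0.81 before) and 0.24 in the inducible set (0.83). The knockdown pair then had 14 members higher at 1.5-fold (26 before) and 3 at 2-fold (11), and the overexpression pair 9 lower at 1.5-fold (5). Rescaling gave 17 higher and 3 lower members at 1.5-fold (1 before) and 6 higher at 2-fold in the knockdown pair. Against the other control, the knockdown library had 3 members lower at 1.5-fold and 1 at 2-fold (0 before), and against the mean of both controls 2 at 1.5-fold. The overexpression library against the other control had 4 higher at 2-fold (2 before). The ratio of PSMB9 to PSMB6 in the overexpression library was 0.0285 from RPKM + 1, in place of 0.0212. Of single-gene values under alternatives, 513 stayed within 0.2 and 75 moved. The depth of the overexpression library limits PSMB9, and no alternative replaces replicates.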

Other observations

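PSMC3IP, a recombination factor and not a proteasome subunit, was at 12.2 RPKM with the empty vector, 19.4 with added MAGE-A1, 11.7 with the scrambled hairpin and 22.8 with the knockdown hairpin. Its log2 ratios of 0.63 and 0.90 placed it above its control in both altered lines.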
